A study of Mus musculus with 22 samples.

Results

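The genes described here serve carbon dioxide transport and sugar breakdown in red cells and white cells. The set holds the carbonic anhydrases Car1 and Car2, the red cell enzymes Bpgm, Pklr and Hk1, the glucose carrier Slc2a1, and the glycolytic enzymes Aldoa, Gpi1, Pkm and Hk3. Members were found as all probe sets on the MOE430A and MOE430B chips that the probe tables name for one of these symbols alone. They name 21 for 9 of the 10 genes, of which chip A holds 18 and chip B holds 3, out of 45037 probe sets and 18193 genes in all. One more, named for Hk1 together with several other genes, was left out. For Gpi1, which turns glucose 6-phosphate into fructose 6-phosphate, they name none, so it was not analysed here. All 21 probe sets passed the signal filter, as did 40405 of the 45037. The samples were mouse bone marrow cells sorted by CD45, the membrane phosphatase that marks leukocytes, and by Sca1, which blood stem cells and part of the mature leukocytes carry.

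The 4 groups were CPGSE +/+ with 2 RNA samples, and OGCsort +/+, +/- and -/- with 3 RNA samples each. CPGSE +/+ cells carried both markers, had a stated purity of 95 to 98%, and were entered under haematopoietic stem cells as their source. OGCsort +/+ cells also carried both markers. OGCsort +/- cells carried CD45 without Sca1, by the order of the signs in the array run records, and OGCsort -/- cells carried neither. The stated purity of the OGCsort samples was 90%. No group carried a genetic change or a treatment by the labels, which give neither strain nor age and leave unsaid whether separate animals were used. The p-values therefore measure the spread between these samples, which may be technical. By their titles, +/+ sample 1 and +/- sample 1 of OGCsort share a sort number, as do +/+ sample 5 and -/- sample 5. The main fit did not pair them. Each RNA sample was hybridized to 1 array of each chip, and the number of arrays limits the precision.

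Carbonic anhydrases join water and carbon dioxide into bicarbonate and a proton, and turn the reaction round in the lung, so red cells carry them in quantity beside the anion exchanger that moves bicarbonate across the membrane. Mature red cells have no mitochondria and live on glycolysis. They divert part of it through 2,3-bisphosphoglycerate, the product of Bpgm, which lowers the oxygen affinity of haemoglobin. Several steps have isozymes of their own in red cells, among them the R form of pyruvate kinase from Pklr, while white cells and most dividing cells use Pkm.

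Values are signal intensities that the authors made with MAS5, rescaled so that the trimmed mean of each array was 500. Differences are log2 fold changes of signal + 32 from limma, with p-values adjusted by the Benjamini-Hochberg method over the 40405 probe sets and a threshold of 0.05. Ptprc, the gene of CD45, gave signals from 7213 to 14320 in the 8 CD45-sorted samples, against 1142, 272 and 149 in -/- samples 4, 5 and 8. Sca1 was not checked here. The 8 measured erythroid marker genes summed to between 2117 and 7117 in the CD45-sorted samples and to 129100, 210800 and 174000 in -/- samples 4, 5 and 8, and all 8 passed a signal of 100 on some array of every group. In -/- sample 4 the erythroid sum was the lowest and Ptprc the highest of its group. The 10 neutrophil granule genes summed to 434600 in +/- sample 1, against 168300 and 106200 in +/- samples 7 and 9. Between 63.3 and 70.6% of probe sets per chip A array, and 72.2 to 80.0% per chip B array, had a rescaled signal over 100. The ratio of 3' to 5' Gapdh control signals on chip A, a sign of RNA quality, was 14.4 and 15.0 in CPGSE +/+, 9.14 to 24.8 in OGCsort +/+, 13.8 to 19.6 in +/- and 8.17 to 11.8 in -/-, and its part in the differences below was not tested. In bulk samples, fewer cells of a type and less RNA per cell cannot be told apart. The 3 comparisons with -/- share their 3 -/- samples, so their values are given side by side.

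**Figure D1:**
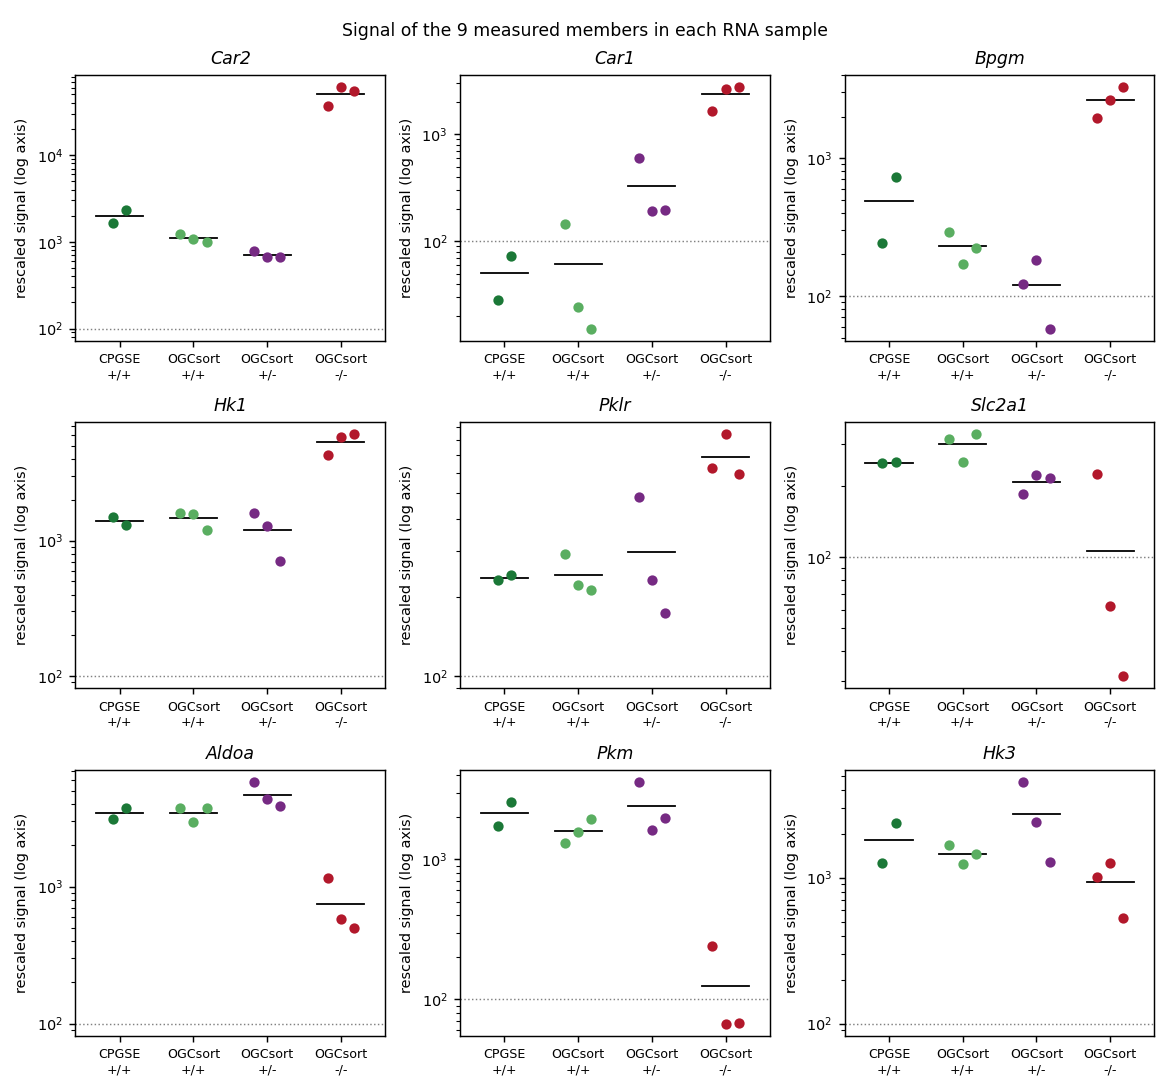
Rescaled signal of the 9 measured genes on a log axis, 1 point per RNA sample, with the group mean as a bar and a dotted line at a signal of 100, for CPGSE +/+, OGCsort +/+, +/- and -/- from left to right. The 3 -/- samples lie above all 8 CD45-sorted samples for Car2, Car1, Bpgm, Hk1 and Pklr, and below them for Aldoa and Pkm.

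The CD45-sorted cells differed from the -/- cells in most of the set, in both directions. In OGCsort +/+ against -/-, Car1, Car2, Bpgm, Pklr and Hk1 were lower and Slc2a1, Aldoa and Pkm were higher, so that 8 of 9 genes were called where 19.8% of 16997 genes were (11% higher and 8.72% lower). The same 5 genes were lower in +/- against -/-, with Aldoa, Pkm and Hk3 higher, and there 8 of 9 genes were called where 16.8% of all genes were (9.55% higher and 7.25% lower). CPGSE +/+ against -/- gave 5 lower and 2 higher, Aldoa and Pkm, which made 7 of 9 genes where 20.6% of all genes were called (11.4% higher and 9.19% lower). Each gene was counted by 1 probe set. With the array run as a block, 3 of the 9 genes were called in +/- against -/-. A further fit left out -/- sample 4, +/- sample 1 and +/+ sample 1, which stood apart from their groups in marker sums. There OGCsort +/+ and +/- each had 8 of 9 genes called against -/-. In +/- these were not the same 8, as Hk3 was no longer called and Slc2a1 was. The median log2 fold change of the 9 genes was -1.40 in CPGSE +/+, -1.38 in OGCsort +/+ and -1.22 in +/-, where the medians of all genes were -0.17, -0.10 and -0.05.

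**Figure D2:**
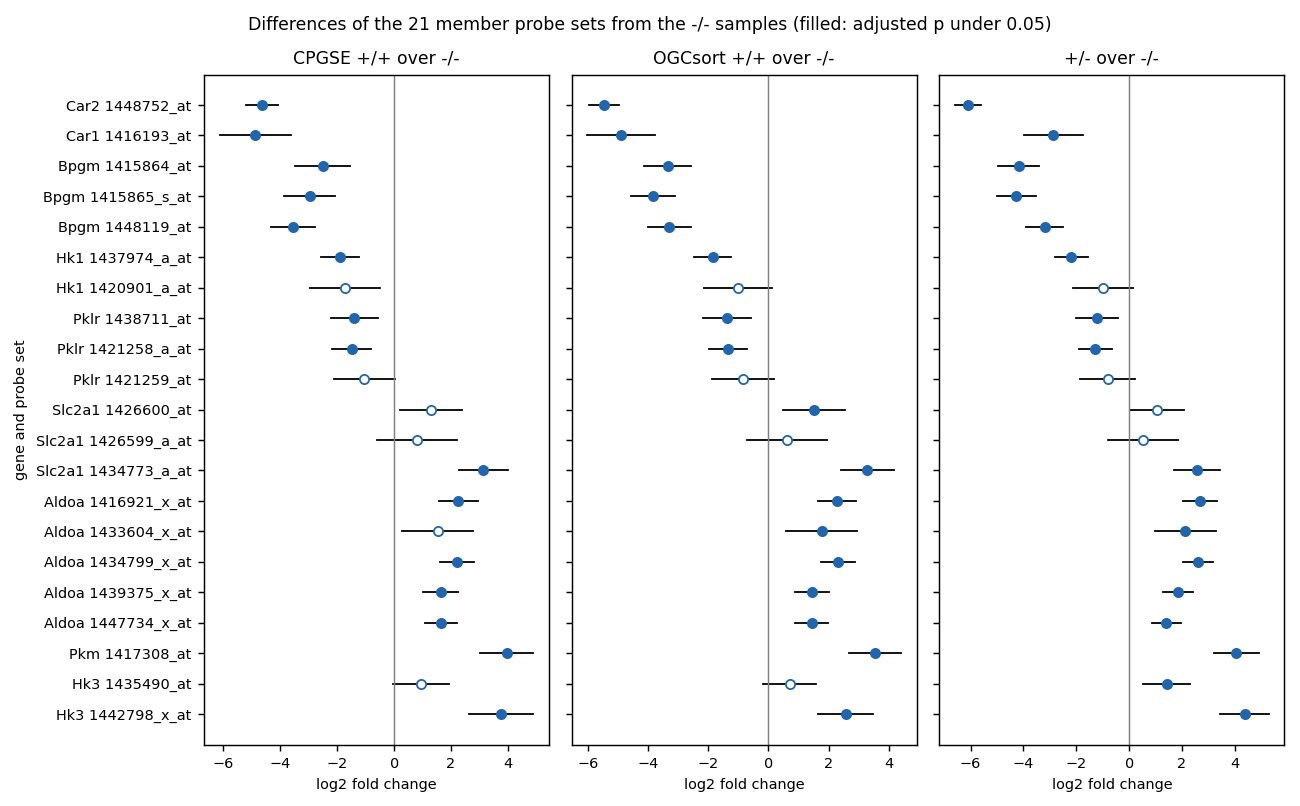
Log2 fold change with its 95% confidence interval for the 21 probe sets of the 9 genes, in CPGSE +/+, OGCsort +/+ and +/- cells over -/- cells. Filled points have an adjusted p under 0.05. Negative values mean lower signal than in -/- cells, and the probe sets of Hk3, Slc2a1 and Hk1 differ among themselves in size or call.

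Car2 is the fast carbonic anhydrase of red cells, and osteoclasts use it too. Its signals were 1626 and 2356 in CPGSE +/+, 1231, 1088 and 984 in OGCsort +/+, 779, 671 and 669 in +/-, and 37020, 61570 and 54670 in -/-. The group means were 1991 ± 516 (SD, n = 2) in CPGSE +/+, 1101 ± 124 (n = 3) in OGCsort +/+, 706 ± 62.8 (n = 3) in +/- and 51090 ± 12670 (n = 3) in -/-. No sample of one group overlapped another group, and the order CPGSE +/+ over OGCsort +/+ over +/- held in every sample. Car2 was 25.1-fold lower in CPGSE +/+ than in -/- (limma log2 fold change -4.65 ± 0.26 SE, adjusted p = 9.97e-08). It was 44.3-fold lower in OGCsort +/+ (limma log2 fold change -5.47 ± 0.23 SE, adjusted p = 1.28e-08) and 67.9-fold lower in +/- (limma log2 fold change -6.08 ± 0.23 SE, adjusted p = 6.52e-09). Among the CD45-sorted groups, the fit called 1 difference in the whole set: Car2 was 2.70-fold higher in CPGSE +/+ than in +/- (limma log2 fold change 1.43 ± 0.26 SE, adjusted p = 0.0308), where 0.394% of all genes were called and 0.288% were called higher. That call was lost without any 1 of the 5 samples, with log2 fold changes from 1.17 to 1.70, and the CPGSE arrays formed a run of their own, so run and group cannot be told apart. The 6 osteoclast marker genes summed to between 1103 and 1634 in the CD45-sorted samples and to 2141, 2834 and 3019 in -/- samples 4, 5 and 8. Of the 5 that passed the filter, limma called 0 lower in CPGSE +/+, 0 in OGCsort +/+ and 1 in +/- against -/-. Of all genes, 9.19%, 8.72% and 7.25% were called lower there. The part of the osteoclast marker genes in the level of Car2 was not tested.

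Car1, the slower and abundant red cell isozyme, had signals of 28.3 and 72.7 in CPGSE +/+, 146, 24.6 and 15.3 in OGCsort +/+, 598, 193 and 194 in +/-, and 1636, 2651 and 2788 in -/-. The +/- samples lay between the others, above every +/+ sample and below every -/- sample. Both CPGSE +/+ samples were under a signal of 100, so Car1 was at least 22.9-fold lower there than in -/- (limma adjusted p = 5.71e-05). It was 29.8-fold lower in OGCsort +/+ than in -/- (limma log2 fold change -4.90 ± 0.52 SE, adjusted p = 2.39e-05). Without +/+ sample 1 every OGCsort +/+ signal was under 100, and the fold was at least 22.9. In +/- against -/- Car1 was 7.33-fold lower (limma log2 fold change -2.87 ± 0.52 SE, adjusted p = 0.00196), and 12.2-fold lower without the 3 samples that stood apart. With the array run as a block this last difference was -1.79 on the log2 scale and no longer called (adjusted p = 0.454). The +/- and -/- samples shared no run on chip A.

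The lower Car1 signal of +/+ against +/- cells did not pass the threshold. Its log2 fold change was -2.02 in OGCsort +/+ (95% interval -3.14 to -0.91, unadjusted p = 0.00165, limma adjusted p = 0.235). Without +/+ sample 1 Car1 was at least 2.82-fold lower (limma adjusted p = 0.0804). In CPGSE +/+, where both signals were under 100, it was at least 2.82-fold lower than in +/- (limma adjusted p = 0.202). By an exact permutation test, two-sided, both had p = 0.1, which is the smallest that 3 samples against 3, or 2 against 3, allow. The chip A run that held all +/- samples held 1 +/+ sample, sample 6, whose signal of 15.3 was below each of theirs. Car2 went the other way between the same samples, with a log2 fold change of 0.62 in OGCsort +/+ against +/- (limma adjusted p = 0.595). The erythroid marker sums, 5763, 2674 and 2394 in OGCsort +/+ samples 1, 5 and 6 and 3886, 2947 and 2117 in +/- samples 1, 7 and 9, overlapped between these groups.

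Car1 and Car2 lie close together in the reference gene order of GRCm38.p6, in the row Car13, Car1, Car3, Car2. The 14 other carbonic anhydrases on the list include Car13, a cytosolic enzyme, and Car3, the muscle and fat isozyme. Of the 13 that passed the filter, limma called 2 in CPGSE +/+ and 1 in OGCsort +/+ against -/-, all lower, and none in +/-, where 0 also had an unadjusted p under 0.05. Of all genes, 9.19%, 8.72% and 7.25% were called lower in CPGSE +/+, OGCsort +/+ and +/-. In either direction 20.6%, 19.8% and 16.8% were called. Car11, a form without known catalytic activity, averaged 89.2 in OGCsort +/+ and 352 in -/- (3.02-fold lower, limma adjusted p = 0.0276). Car15 and Car4, membrane-anchored forms, were at least 2.29-fold and at least 1.14-fold lower in CPGSE +/+ than in -/- (limma adjusted p = 0.0284 and 0.0458). Car15 averaged 55.7 in CPGSE +/+, 202 in OGCsort +/+, 220 in +/- and 247 in -/-. Car4 averaged 9.30, 84.8, 62.5 and 102 in the same order. The CPGSE arrays formed a run of their own, so run and group cannot be told apart here. Leaving out 1 sample ended the call of Car11 for 4 of 6 samples, of Car15 for 3 of 5 and of Car4 for 4 of 5. Car13 had signals of 166 and 89.1 in CPGSE +/+, 247, 161 and 103 in OGCsort +/+, 365, 129 and 133 in +/-, and 245, 324 and 174 in -/-, and its groups overlapped. The median log2 fold change of the 13 genes was -0.66, -0.28 and -0.15 in CPGSE +/+, OGCsort +/+ and +/- against -/-.

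The genes of proteins that work beside carbonic anhydrase at the red cell membrane also had lower signals. All 6 measured genes of the anion exchanger complex and gas channels were lower in each CD45-sorted group than in -/-, with median log2 fold changes of -5.92 in CPGSE +/+, -6.36 in OGCsort +/+ and -6.33 in +/-, where 9.19%, 8.72% and 7.25% of all genes were called lower. Slc4a1, the bicarbonate and chloride exchanger band 3, had signals from 167 to 565 in the 8 CD45-sorted samples and of 35530, 58070 and 48430 in -/-. Aqp1, a water channel that also passes carbon dioxide, averaged 230.2 in CPGSE +/+, 275 in OGCsort +/+, 308 in +/- and 16170 in -/-. Ank1, the ankyrin that ties band 3 to the membrane skeleton, averaged 357 in CPGSE +/+, 475 in OGCsort +/+, 392 in +/- and 22540 in -/-. Rhd, of the Rh complex, was 124-fold lower in CPGSE +/+, 156-fold lower in OGCsort +/+ and 129-fold lower in +/- than in -/- (limma adjusted p = 2.10e-08, 6.45e-09 and 6.52e-09).

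Bpgm makes 2,3-bisphosphoglycerate. Its main probe set had signals of 244 and 725 in CPGSE +/+, 293, 172 and 222 in OGCsort +/+, 122, 182 and 58.1 in +/-, and 1969, 2635 and 3300 in -/-. Every -/- sample lay above every CD45-sorted sample, and CPGSE +/+ sample 6 was the highest of the CD45-sorted samples. Bpgm was 10.2-fold lower in OGCsort +/+ than in -/- (limma log2 fold change -3.35 ± 0.36 SE, adjusted p = 2.92e-05) and 18.1-fold lower in +/- (limma log2 fold change -4.18 ± 0.36 SE, adjusted p = 5.44e-06). In CPGSE +/+ it was 5.71-fold lower (limma log2 fold change -2.51 ± 0.46 SE, adjusted p = 0.00147). That fold was 3.45 without CPGSE sample 4 and 9.45 without CPGSE sample 6. In CPGSE sample 6 the erythroid sum was 7117, against 2676 in CPGSE sample 4. Of its genes, Alas2 had a signal of 4828, against 1319, and Hemgn, an erythroid nuclear protein, 504, against 158. Klf1, Tal1, Epor and Ermap were also higher in CPGSE sample 6, at 426, 406, 331 and 306 against 159, 182, 242 and 185. Gata1, at 221 against 247, and Hba-a1, at 95.3 against 182, went the other way. The part of the erythroid genes in the level of Bpgm was not tested. The other 2 Bpgm probe sets were lower in all 3 comparisons, by 2.97 to 4.27 on the log2 scale. Minpp1, a phosphatase that can also remove a phosphate from 2,3-bisphosphoglycerate, was lower too, with means of 369 in CPGSE +/+, 275 in OGCsort +/+, 274 in +/- and 960.0 in -/-. Its call in CPGSE +/+ was lost without CPGSE sample 4, CPGSE sample 6 or -/- sample 8.

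Bpgm is shown with the bases around its RefSeq start because it is the member that defines the red cell branch of glycolysis. The window holds 250 bases before the start and 50 after it, at chr6:34476106-34476405 of GRCm38.p6, plus strand. Capitals mark a match to CCNCNCCC, the letters of the KLF motif, on the opposite strand 110 bases before the start. The table gives such windows for 8 of the 10 genes, 13 windows in all, and none for Car1 or Car2.
Bpgm: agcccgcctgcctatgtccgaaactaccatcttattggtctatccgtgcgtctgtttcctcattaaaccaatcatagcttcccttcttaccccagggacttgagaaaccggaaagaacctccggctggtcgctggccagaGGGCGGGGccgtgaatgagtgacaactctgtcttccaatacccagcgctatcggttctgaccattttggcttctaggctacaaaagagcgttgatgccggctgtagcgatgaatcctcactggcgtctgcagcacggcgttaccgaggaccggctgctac
The KLF letters were in 49.5% of the 32851 promoter windows of the table, searched on both strands, and AGATAA, the letters of the GATA motif, in 11.2%. Neither AGATAA nor GAGGAAG, the letters of the PU.1 motif, was in this window. Klf1 and Gata1, erythroid factors of the KLF and GATA families, had signals of 159 to 426 and 172 to 525 in the CD45-sorted samples, and of 7768 to 13770 and 5615 to 8840 in -/-. A match is a description of the letters, and binding was not measured.

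Pyruvate kinase, the last step of glycolysis, showed its isozymes in opposite directions. Pklr, whose R form is that of red cells and whose L form is that of liver, had signals of 232 and 244 in CPGSE +/+, 294, 223 and 214 in OGCsort +/+, 484, 234 and 175 in +/-, and 628, 843 and 593 in -/-. The groups did not overlap with -/-, and +/- sample 1 came closest. Pklr was 2.64-fold lower in CPGSE +/+ (limma adjusted p = 0.0228), 2.60-fold lower in OGCsort +/+ (limma adjusted p = 0.0187) and 2.33-fold lower in +/- (limma adjusted p = 0.0397). Leaving out 1 sample ended the call for 3 of 5 samples in CPGSE +/+, for 3 of 6 in OGCsort +/+ and for 5 of 6 in +/-, and the run block ended it in OGCsort +/+ (adjusted p = 0.0774) and in +/- (adjusted p = 0.617). A further probe set of Pklr gave 2.82-fold, 2.52-fold and 2.43-fold lower signal in the same order, with adjusted p from 0.00412 to 0.00942. The third had no array over 100 in any CD45-sorted group and was not called.

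Pkm is the pyruvate kinase of white cells, muscle and dividing cells. It had signals of 1738 and 2589 in CPGSE +/+, 1314, 1567 and 1940 in OGCsort +/+, 3599, 1627 and 1967 in +/-, and 238.5, 67.0 and 67.8 in -/-. The -/- samples lay far below the rest, and -/- sample 4, the one with the highest Ptprc signal, was the highest of them. Pkm was 15.5-fold higher in CPGSE +/+ than in -/- (limma log2 fold change 3.96 ± 0.43 SE, adjusted p = 2.44e-05). In OGCsort +/+ it was 11.7-fold higher (limma log2 fold change 3.54 ± 0.40 SE, adjusted p = 3.83e-05), and in +/- it was 16.5-fold higher (limma log2 fold change 4.05 ± 0.40 SE, adjusted p = 1.66e-05). The 8 monocyte and macrophage marker genes summed to between 33390 and 73060 in the CD45-sorted samples and to 5956, 1645 and 1102 in -/- samples 4, 5 and 8, and their part in the Pkm signal was not tested. Within the chip A run that held +/+ samples 1 and 5 and all -/- samples, Pkm differed by 3.40 and Pklr by -1.30 on the log2 scale.

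The 2 RefSeq starts of Pklr are shown because the red cell and liver forms begin at different promoters, the red cell one upstream. Capitals mark a match to AGATAA on the gene's strand 35 bases before the upstream start. The windows lie at chr3:89135892-89136191 and chr3:89136373-89136672 of GRCm38.p6, plus strand.
Pklr, upstream start: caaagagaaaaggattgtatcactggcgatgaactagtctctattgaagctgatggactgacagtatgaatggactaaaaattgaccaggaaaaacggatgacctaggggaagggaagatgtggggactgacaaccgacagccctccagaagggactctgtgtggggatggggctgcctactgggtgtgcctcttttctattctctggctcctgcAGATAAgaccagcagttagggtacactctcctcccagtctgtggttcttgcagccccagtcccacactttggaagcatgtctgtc
Pklr, downstream start: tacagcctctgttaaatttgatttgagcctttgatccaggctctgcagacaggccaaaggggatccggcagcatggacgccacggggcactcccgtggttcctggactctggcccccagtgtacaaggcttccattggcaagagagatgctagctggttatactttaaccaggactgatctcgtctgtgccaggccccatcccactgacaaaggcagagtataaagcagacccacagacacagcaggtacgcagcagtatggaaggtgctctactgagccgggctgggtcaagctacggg
The downstream window held none of the 3 motifs searched. Among the 13 windows of the genes of this set, AGATAA was in 1, where 11.2% of all windows hold it. The KLF letters were in 9, where 49.5% of all windows hold them. Those 9 include windows of Pkm, Aldoa and Slc2a1, which had calls of higher signal in CD45-sorted cells, and of Gpi1, which was not analysed. Some of the Aldoa windows overlap one another. The probe sets of Pklr were not matched to either start here.

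Hexokinases trap glucose in the cell as glucose 6-phosphate. Hk1, the hexokinase of red cells and brain, had signals of 1486 and 1313 in CPGSE +/+, 1614, 1573 and 1208 in OGCsort +/+, 1615, 1284 and 709 in +/-, and 4283, 5793 and 6125 in -/-. All -/- samples were above all others, and the CD45-sorted groups overlapped. Hk1 was 3.76-fold lower in CPGSE +/+ (limma adjusted p = 0.000631), 3.62-fold lower in OGCsort +/+ (limma adjusted p = 0.000535) and 4.58-fold lower in +/- (limma adjusted p = 0.000182) than in -/-. The run block ended the last of these calls (log2 fold change -1.81, adjusted p = 0.141). The other Hk1 probe set had signals from 7.04 to 109 in the CD45-sorted samples and from 103 to 165 in -/-, and it was called in none of the 3 comparisons.

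Hk2, the insulin-responsive hexokinase of muscle that many dividing cells use, moved against Hk1. Its signals were 1030 and 1395 in CPGSE +/+, 1254, 1310 and 966 in OGCsort +/+, 3080, 1423 and 1264 in +/-, and 431, 131 and 176 in -/-. It was 4.91-fold higher in CPGSE +/+, 4.78-fold higher in OGCsort +/+ and 7.20-fold higher in +/- than in -/- (limma adjusted p = 0.00196, 0.00140 and 0.000304).

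Hk3, a hexokinase found mainly in myeloid cells, has 2 probe sets on chip B that disagree in size. The first had signals of 1266 and 2359 in CPGSE +/+, 1685, 1246 and 1446 in OGCsort +/+, 4541, 2397 and 1281 in +/-, and 1007, 1250 and 532 in -/-. By it Hk3 was 2.69-fold higher in +/- than in -/- (limma log2 fold change 1.43 ± 0.42 SE, adjusted p = 0.0320), a call lost without +/- sample 1, +/- sample 7 or -/- sample 8, without the 3 samples that stood apart, without a trend in the variance, and with the run block (adjusted p from 0.0864 to 0.489). On chip B the run block joined the array run and its station. There +/- sample 1 was alone in its block, and the +/- and -/- samples shared no block. The differences of 0.95 in CPGSE +/+ and 0.70 in OGCsort +/+ were not called (limma adjusted p = 0.181 and 0.286). The second, whose name carries the letter x, had signals of 1492 and 5134 in CPGSE +/+, 2109, 907 and 871 in OGCsort +/+, 7079, 3664 and 2891 in +/-, and 192, 250.1 and 108 in -/-. By it Hk3 was 13.6-fold higher in CPGSE +/+, 5.90-fold higher in OGCsort +/+ and 20.6-fold higher in +/- than in -/- (limma adjusted p = 0.000124, 0.000698 and 9.07e-06). The CPGSE fold was 25.0 without CPGSE sample 4 and 7.38 without CPGSE sample 6. That letter marks probes that may also match other transcripts, and which of the 2 reads Hk3 better was not tested.

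Both Hk3 probe sets were highest in +/- sample 1. By the second, OGCsort +/+ lay below +/- in every sample, but the log2 fold change of -1.80 did not pass the threshold (95% interval -2.72 to -0.89, unadjusted p = 0.000763, limma adjusted p = 0.168). CPGSE +/+ and OGCsort +/+ differed by 1.20 (95% interval 0.08 to 2.33, limma adjusted p = 0.816), by 2.08 without CPGSE sample 4 and by 0.32 without CPGSE sample 6. The 10 neutrophil granule genes summed to 13980 and 136200 in CPGSE +/+, 33580, 7962 and 8586 in OGCsort +/+, 434600, 168300 and 106200 in +/-, and 20910, 2244 and 2065 in -/-. Of these genes, 5 of 10 were higher in CPGSE +/+, 4 in OGCsort +/+ and all 10 in +/- than in -/-, where 11.4%, 11% and 9.55% of all genes were called higher. Their part in the Hk3 signal was not tested.

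**Figure D3:**
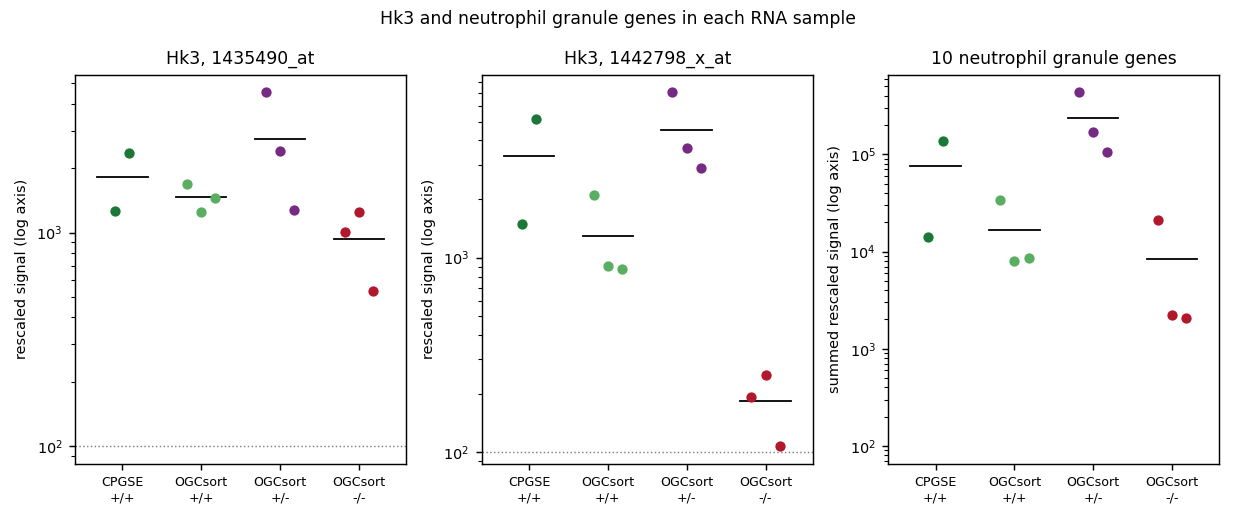
Rescaled signal of the 2 Hk3 probe sets and summed signal of 10 neutrophil granule genes on log axes, 1 point per RNA sample, with the group mean as a bar and, for Hk3, a dotted line at a signal of 100. CPGSE +/+ sample 6 and +/- sample 1 are the highest of their groups in each panel, and the -/- samples fall below all others only for the second Hk3 probe set.

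The Hk3 window is shown as that of the member most tied to myeloid cells, at chr13:55021336-55021635 of GRCm38.p6, minus strand. Capitals mark a match to GAGGAAG, on the opposite strand, 211 bases before the start.
Hk3: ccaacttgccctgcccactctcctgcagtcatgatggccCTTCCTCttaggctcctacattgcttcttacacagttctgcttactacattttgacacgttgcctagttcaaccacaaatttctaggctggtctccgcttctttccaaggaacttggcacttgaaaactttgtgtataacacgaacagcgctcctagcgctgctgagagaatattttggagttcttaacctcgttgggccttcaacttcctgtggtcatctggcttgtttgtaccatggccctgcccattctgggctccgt
GAGGAAG was in 3 of the 13 windows of the set, where 13.6% of all windows hold it. Besides that of Hk3, these were windows of Hk1, which had calls of lower signal in CD45-sorted cells, and of Aldoa, which had calls of higher signal. The window held neither AGATAA nor the KLF letters.

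Slc2a1 encodes GLUT1, a glucose carrier of many cells, and of red cells in newborn mice and adult humans. Its 3 probe sets differed. The main one had signals of 249 and 252 in CPGSE +/+, 315, 253 and 332 in OGCsort +/+, 185, 223 and 216 in +/-, and 224, 62.4 and 31.5 in -/-. By it -/- sample 4 lay just above every +/- sample. Slc2a1 was 2.86-fold higher in OGCsort +/+ than in -/- (limma log2 fold change 1.52 ± 0.48 SE, adjusted p = 0.0454). This call was lost without any 1 of 5 of the 6 samples and kept without -/- sample 4. It was also lost with no signal filter, without a trend in the variance and with the run block, and the adjusted p over these losses ran from 0.0516 to 0.161. The differences of 1.29 in CPGSE +/+ and 1.05 in +/- were not called (limma adjusted p = 0.0940 and 0.181). Without -/- sample 4, which left both -/- signals under 100, both were called, at least 2.51-fold higher in CPGSE +/+ and at least 2.07-fold higher in +/- (limma adjusted p = 0.00638 and 0.0213).

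A second probe set of Slc2a1 had signals of 436 and 417 in CPGSE +/+, 453, 502 and 475 in OGCsort +/+, 194, 349 and 311 in +/-, and 42.1, 8.16 and 15.8 in -/-. All -/- samples were under a signal of 100, so Slc2a1 was at least 4.27-fold higher in CPGSE +/+, at least 4.76-fold higher in OGCsort +/+ and at least 2.76-fold higher in +/- (limma adjusted p = 9.20e-05, 8.31e-05 and 0.000746). The run block ended the call in +/- (adjusted p = 0.148). The third probe set overlapped between the groups and was not called. Every +/+ sample of both sets lay above every +/- sample by the first and second probe sets, by 0.24 to 0.72 on the log2 scale, which was not called (limma adjusted p from 0.672 to 0.956).

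Of the 14 other glucose and lactate carriers on the list, 2 were higher and 3 lower in CPGSE +/+, 2 higher and 5 lower in OGCsort +/+, and 2 higher and 4 lower in +/- against -/-. Of all genes, 20.6%, 19.8% and 16.8% were called in these comparisons. The median log2 fold changes were -1.05, -0.61 and -0.90, against -0.17, -0.10 and -0.05 for all genes. With the run block 2 of the 6 calls in +/- were kept, those of Bsg and Slc2a4. Slc2a3, the high-affinity glucose carrier GLUT3, had signals of 2642 and 2651 in CPGSE +/+, 2856, 2919 and 3556 in OGCsort +/+, 7231, 1748 and 935 in +/-, and 623, 662 and 709.9 in -/-. It was higher in all 3 (limma adjusted p = 0.0241, 0.00897 and 0.0346). In +/- the fold was 3.33, or 1.88 and not called without +/- sample 1 (limma adjusted p = 0.0587), and 5.17 without +/- sample 9. Leaving out 1 sample ended the call of Slc2a3 for 5 of 6 samples in +/- and for 3 of 5 in CPGSE +/+. Slc2a6, a carrier of lysosomes in macrophages, was also higher in all 3, by 7.56-fold, 8.41-fold and 3.69-fold. Its call was lost without 1 of 5 samples in CPGSE +/+, which was CPGSE sample 4, without any 1 of 4 of 6 samples in +/-, and with the run block in OGCsort +/+ and +/-. Its probe set lies on chip B, with the run block described for Hk3. The monocarboxylate carrier Slc16a1 and its partner Bsg, which together move lactate across the membrane, were lower in all 3. Slc16a1 averaged 403 in CPGSE +/+, 238 in OGCsort +/+, 645 in +/- and 4619 in -/-. Its fold in CPGSE +/+ was 11.1, or 6.84 without CPGSE sample 4 and 18.1 without CPGSE sample 6. Bsg averaged 496, 415 and 443 in the same groups and 2998 in -/-. Slc2a4, the insulin-dependent carrier GLUT4, had signals from 43.1 to 274 in the CD45-sorted samples and of 1304, 2279 and 1038 in -/-, and was lower in all 3 comparisons.

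Aldoa splits fructose 1,6-bisphosphate and is the aldolase of muscle and red cells. Its main probe set had signals of 3098 and 3756 in CPGSE +/+, 3718, 2944 and 3736 in OGCsort +/+, 5820, 4363 and 3839 in +/-, and 1148, 578 and 494 in -/-. The +/- samples were the highest, each above every +/+ sample, and -/- sample 4 was the highest of its group. Aldoa was 4.76-fold higher in CPGSE +/+ (limma log2 fold change 2.25 ± 0.32 SE, adjusted p = 0.000200), 4.81-fold higher in OGCsort +/+ (limma log2 fold change 2.27 ± 0.29 SE, adjusted p = 0.000127) and 6.41-fold higher in +/- (limma log2 fold change 2.68 ± 0.29 SE, adjusted p = 4.15e-05) than in -/-. With the run block the last of these had a limma adjusted p of 0.0504. All 5 Aldoa probe sets, of which chip B holds 1, carry the letter x. All 5 were higher in OGCsort +/+ and in +/-, and 4 of 5 in CPGSE +/+. For 1 of the 5 the call was lost without any 1 of 3 samples in OGCsort +/+ and in +/-. The lower signal of +/+ against +/- by the main probe set was not called (log2 fold change -0.41 in OGCsort +/+, limma adjusted p = 0.907), and the chip B probe set gave 0.02.

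Other enzymes of glycolysis moved in both directions as well. Of 18 tested genes outside the set, 5 were higher and 2 lower in CPGSE +/+ against -/-, 6 higher and 2 lower in OGCsort +/+, and 7 higher and 2 lower in +/-. Of all genes, 11.4% were higher and 9.19% lower in CPGSE +/+, 11% and 8.72% in OGCsort +/+, and 9.55% and 7.25% in +/-, so the shares called lower lay near the background. With the run block none of the 9 calls in +/- was kept (limma adjusted p from 0.0595 to 0.383). Phosphofructokinase, the step that commits sugar to glycolysis, split by isozyme. Pfkm, the muscle form that red cells also carry, averaged 752 in CPGSE +/+, 864 in OGCsort +/+, 677 in +/- and 2417 in -/-. It was lower in all 3 (limma adjusted p = 0.000416, 0.000851 and 0.000202). Pfkp, the platelet form, had signals of 700.0 and 659 in CPGSE +/+, 981, 902 and 936 in OGCsort +/+, 767, 611 and 727 in +/-, and 471, 66.0 and 114 in -/-. It was 3.68-fold, 5.03-fold and 3.78-fold higher (limma adjusted p = 0.0161, 0.00308 and 0.0123), and 5.94-fold, 8.12-fold and 6.11-fold higher without -/- sample 4. Without -/- sample 5 it was not called in CPGSE +/+ or +/-, and without CPGSE sample 4 or 6 not in CPGSE +/+.

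Pgk1 and Pgam1, of the steps that frame the 2,3-bisphosphoglycerate branch, were higher in the CD45-sorted groups. Pgk1 averaged 6221 in CPGSE +/+, 4695 in OGCsort +/+, 7685 in +/- and 1563 in -/-. Its fold in OGCsort +/+ was 3.50, or 5.70 without the 3 samples that stood apart. Pgam1 had signals of 993 and 1170 in CPGSE +/+, 627, 1232 and 825 in OGCsort +/+, 2037, 1041 and 921 in +/-, and 499, 30.7 and 16.7 in -/-, and was 9.45-fold, 7.61-fold and 10.9-fold higher (limma adjusted p = 0.00693, 0.00882 and 0.00359). Without -/- sample 4, which left both -/- signals under 100, Pgam1 was at least 10.8-fold, at least 8.60-fold and at least 12.5-fold higher. Without -/- sample 8 the folds were 6.08, 4.90 and 7.04, and without CPGSE sample 6 the call in CPGSE +/+ was lost. Ldha, which makes lactate, had signals of 5472, 1329 and 684 in -/-, so that -/- sample 4 lay within the 4829 to 12470 of the CD45-sorted samples. The median log2 fold change of the 18 genes was 0.51 in CPGSE +/+, 0.64 in OGCsort +/+ and 0.34 in +/-.

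**Figure D4:**
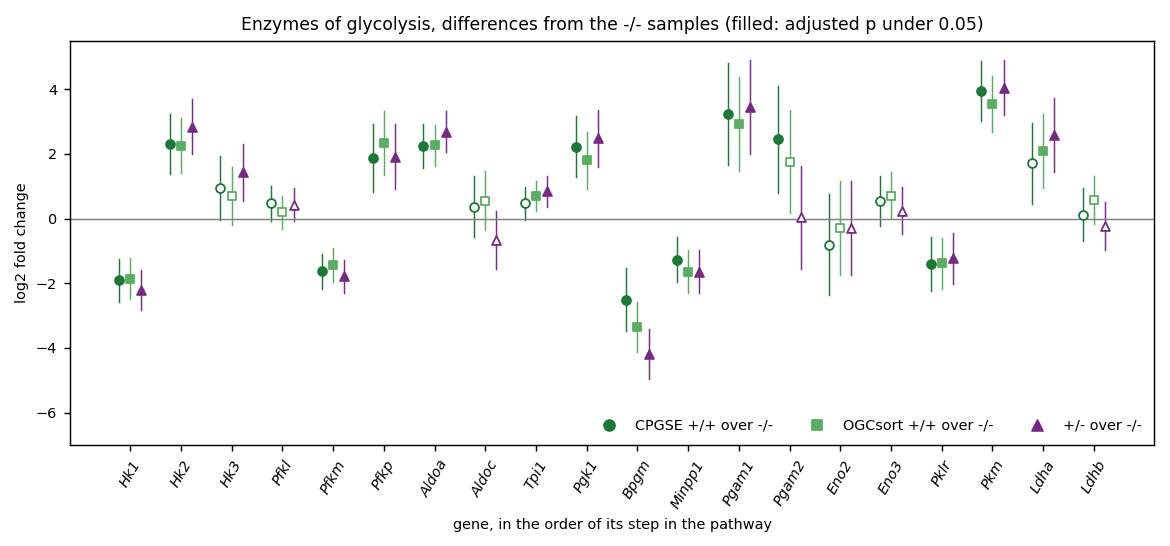
Log2 fold change with its 95% confidence interval for 20 tested enzymes of glycolysis and its side branches, ordered by step, in CPGSE +/+ (circles), OGCsort +/+ (squares) and +/- (triangles) over -/- cells, 1 probe set per gene. Filled points have an adjusted p under 0.05. Without the run as a block, Hk1, Pfkm, Bpgm, Minpp1 and Pklr are lower in all 3, and Hk2, Pfkp, Aldoa, Pgk1, Pgam1 and Pkm are higher in all 3.

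The pentose phosphate pathway takes glucose 6-phosphate away from glycolysis to make NADPH. Of its 7 tested genes, 1 was higher in CPGSE +/+, 1 higher and 1 lower in OGCsort +/+, and 2 higher in +/- against -/-, where 20.6%, 19.8% and 16.8% of all genes were called. Pgd, its second dehydrogenase, had signals of 2934 and 3533 in CPGSE +/+, 4197, 4208 and 2228 in OGCsort +/+, 24660, 10250 and 6496 in +/-, and 704, 531 and 350.4 in -/-. It was 6.01-fold, 6.35-fold and 21.9-fold higher (limma adjusted p = 0.00116, 0.000554 and 1.09e-05), by a probe set whose name carries the letter x. Every +/- sample was above every +/+ sample, and +/- sample 1 was the highest. With the run block the fold in +/- was 41.0. Taldo1, a transaldolase, averaged 1915 in OGCsort +/+ and 3281 in -/- (1.70-fold lower, limma adjusted p = 0.0433), a call lost without any 1 of 5 of the 6 samples and with the run block. H6pd, the dehydrogenase of the endoplasmic reticulum, had signals of 923, 911 and 80.2 in +/- and of 39.5, 41.4 and 38.2 in -/-. It was at least 4.38-fold higher in +/- (limma adjusted p = 0.0303), a call lost without any 1 of 4 of the 6 samples and with the run block, and at least 9.17-fold higher without +/- sample 9.

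Between the CD45-sorted groups Car2 in CPGSE +/+ against +/- was the one call. By limma none of the 9 genes was called in OGCsort +/+ against +/-, where 0.141% of all genes were, and 3 had an unadjusted p under 0.05. None was called in CPGSE +/+ against OGCsort +/+, where 0% of all genes were, and 1 had an unadjusted p under 0.05. Of the 21 probe sets, 6 did not overlap between OGCsort +/+ and +/-, where 13.3% of all probe sets did not. Between CPGSE +/+ and OGCsort +/+ 3 did not overlap, where 27% of all did not, and between CPGSE +/+ and +/- 7 did not, where 30.7% of all did not. Against -/- the counts were 20, 18 and 19 of 21 for CPGSE +/+, OGCsort +/+ and +/-, where 47.4%, 34.9% and 29.7% of all probe sets did not overlap. Bpgm had log2 fold changes of 1.67 in CPGSE +/+ against +/- (95% interval 0.70 to 2.64, limma adjusted p = 0.160; 2.40 without CPGSE sample 4 and 0.94 without CPGSE sample 6) and of 0.83 in OGCsort +/+ against +/- (95% interval 0.05 to 1.61, limma adjusted p = 0.702). Car2 differed by 0.82 between CPGSE +/+ and OGCsort +/+ (95% interval 0.26 to 1.38, limma adjusted p = 0.597). Hk1 and Pkm had intervals that held 0 in all 3 of these comparisons.

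Across the 11 samples the members fell into patterns that the gap between -/- and the rest carries, so the following correlations describe that gap. The log2 signal of Car2 had a Pearson r of 0.962 with Bpgm, 0.950 with Hk1 and -0.962 with Aldoa, and Aldoa had 0.985 with Pkm. Hk3, by its first probe set, had 0.761 with Aldoa and -0.632 with Car2. The 5 genes most like Car2 were Prnp, the prion protein, Trim59, Trim10, an erythroid ring-finger protein, Isg20 and Isca1, an iron-sulfur assembly factor, with r from 0.992 to 0.994. Trim10 averaged 479 in CPGSE +/+, 239.8 in OGCsort +/+, 227 in +/- and 14960 in -/-. The 5 most like Hk3 were Trem3, Il6ra, Pglyrp1, Vasp and Agpat2, with r from 0.904 to 0.950. Pglyrp1, a granule protein of neutrophils, averaged 613 in CPGSE +/+, 382 in OGCsort +/+, 2537 in +/- and 31.4 in -/-. All these points share their arrays, and each array has its own scaling.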

How the data were processed

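The deposited intensity values are linear and were made by the authors with MAS5, per the submitters' processing notes, which give no version here. Their mean on each array, with 2% trimmed at each end, was 1501 on chip A and 1500 on chip B. Array run records gave the sort signs, the runs and the stations. The run block was the run on chip A, and the run and station together on chip B. Arrays were rescaled here to a trimmed mean of 500 before taking log2 of signal + 32. Probe sets over 100 on fewer than 2 of a chip's 11 arrays were dropped, which kept 19177 on chip A and 21228 on chip B. The chips were fitted separately with limma 3.58.1 (trend) in R 4.3.3, on 9 samples for OGCsort comparisons and 11 for those with CPGSE. A gene was counted by its chip A probe set before chip B, a plain _at name before others, then by the highest mean. Folds follow the log2 fold change, and a group wholly under 100 gives a bound against 100. On simulated data for OGCsort +/+ against -/- (40405 probe sets, 3 samples each, 200 probe sets changed), 6% of 2-fold, 36% of 4-fold, 82% of 8-fold and 100% of 32-fold changes were recovered. There 11 unchanged probe sets were also called. In the data a far larger share was called, 19.8% of genes, so these rates do not give the power of the real comparison. All members were named, with, per comparison and direction, up to 3 genes of every list, taken by smallest adjusted p. Car13, Ldha, Klf1, Gata1, Hemgn, Alas2, Hba-a1, Tal1, Epor and Ermap were chosen after their values were seen. Members and lists were chosen with earlier results of these data known. Promoters are from RefSeq (GRCm38.p6).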

Additional observations from a re-analysis of the deposited data

How the results depend on the processing

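The differences from -/- of Car2, Bpgm and Pkm kept their calls under every alternative run in all 3 comparisons, and those of Car1, Hk1 and Aldoa under every one except the run block in +/- against -/-. The run block was not among the alternatives for CPGSE +/+, whose arrays formed a run of their own. With the array run as a block, 3 genes were called in +/- against -/- instead of 8, and the cause was not tested. In that fit the +/- and -/- samples, which shared no run on chip A, were tied only through the +/+ samples. The call of Car2 in CPGSE +/+ against +/- was lost without a trend in the variance (0 genes called) and without any 1 sample (0 to 0 genes). No alternative gave a call against the main direction. Signs turned only for differences that were never called. Between CPGSE +/+ and OGCsort +/+ these were Car1 at -0.0197 with a pseudocount of 64, Pklr at 0.0792 after quantile normalization, and Aldoa at 0.20 by its brightest probe set. The replicate block, with the sort number as a random term, gave 0.0014 for Aldoa, 0.0155 for Hk1 and 0.12 for Pklr there and changed no count of called genes. Leaving out 1 sample moved the same comparison between -0.15 and 0.12 for Aldoa, -0.37 and 0.62 for Car1, -0.19 and 0.0314 for Hk1, -0.19 and 0.69 for Hk3, and -0.095 and 0.11 for Pklr. In CPGSE +/+ against +/- it moved Hk1 between -0.0434 and 0.53, Pklr between -0.46 and 0.20 and Pkm between -0.37 and 0.24, and the brightest Aldoa probe set gave 0.23. In OGCsort +/+ against +/- it moved Pklr between -0.44 and 0.22, the brightest Aldoa probe set gave 0.0229, and Pklr was at 0.0927 without -/- sample 4, +/- sample 1 and +/+ sample 1, a set chosen after seeing the data. Low signals, near or under 100, limit Car1 in +/+ samples and the third Pklr and second Hk1 probe sets. They also limit Pkm and the main Slc2a1 probe set in -/- samples 5 and 8, and the second Slc2a1 probe set in all -/- samples. Leaving out samples and the run block for the genes outside the set were also chosen after seeing the data.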
